A study of Rattus norvegicus with 9 samples.

Results

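The miR-30 family is described here in transplanted and untouched rat corneas. Its 7 members were taken by name from the 765 mature miRNAs of the deposited table: the 5p arms of miR-30a, miR-30b, miR-30c, miR-30d and miR-30e, and the 3p arms of miR-30a and miR-30e. Small RNA was sequenced from allograft, isograft and normal corneas, 3 libraries each, and every sample is labelled Wistar and aged 6 weeks. By the meaning of these terms the donor differs genetically from the recipient in an allograft and matches it in an isograft, but the labels give neither a donor strain, nor the time after surgery, nor the state of the grafts. The titles number the 3 libraries of each group 12, 34 and 56, and these numbers are used as names. Whether they stand for separate animals is not stated, so p-values reflect only the spread between samples, part of which may be technical.

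MicroRNAs are short RNAs that guide Argonaute proteins to messenger RNAs, which they repress, and the seed near the 5′ end of the miRNA does most of the pairing. The miR-30 5p arms share a seed and so share most predicted targets. The family is abundant in differentiated epithelial, cardiac and renal cells, and in mammalian cell culture its members repress SNAI1, a driver of epithelial-mesenchymal transition, and the connective tissue growth factor CCN2. Each hairpin can give a 5p arm and a 3p arm.

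The sequences below show the seed that the 5p arms share and where miR-30c-5p differs from miR-30a-5p. They were taken from RefSeq (rat build GRCr8), which gave 4 of the 7 members (miR-30b-5p, miR-30d-5p and miR-30e-3p are named only), and are shown with the 3p arms of the 2 miR-30c hairpins and with miR-384-5p. Bases 2 to 8, the seed, are in capitals.
rno-miR-30a-5p: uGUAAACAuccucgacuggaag
rno-miR-30e-5p: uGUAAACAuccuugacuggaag
rno-miR-30c-5p: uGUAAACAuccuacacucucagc
rno-miR-384-5p: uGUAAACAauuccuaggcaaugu
rno-miR-30a-3p: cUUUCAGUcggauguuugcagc
rno-miR-30c-1-3p: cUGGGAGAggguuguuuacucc
rno-miR-30c-2-3p: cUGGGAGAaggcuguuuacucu

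The first 4 of these carry the seed GUAAACA, which 4 of the 693 mature rat miRNAs of that table hold, 0.577%. miR-30e-5p differs from miR-30a-5p at a single base, C13U, with positions counted from 1 at the 5′ end and the base of miR-30a-5p first. miR-30c-5p differs from miR-30a-5p at 5 of the 22 bases compared, C13A, G14C, G18C, G19U and A20C, all outside the seed. miR-30a, miR-30d and miR-30e are near-identical along their 5p arms, as miR-30a and miR-30e are along their 3p arms, so how reads were split between them is uncertain. miR-30b-5p, whose sequence was not at hand, could not be compared with miR-30c-5p. How reads were split between miR-30b-5p and miR-30c-5p is therefore uncertain too. miR-384-5p, the other miRNA with this seed, had between 0 and 8 reads in a library and adds next to nothing to the seed's total in cornea.

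The hairpins lie in pairs in the genome. In GRCr8, Mir30a is at chr9:33233941-33234011 and Mir30c2 at chr9:33253682-33253765, both on the plus strand. Mir30c1 is at chr5:139634455-139634543 and Mir30e at chr5:139637450-139637541, both on the minus strand and within the span of the protein-coding gene Nfyc, which encodes a subunit of the transcription factor NF-Y. Mir30b and Mir30d neighbour each other. The mature miR-30c-5p is the same from Mir30c1 and Mir30c2, and only the 3p arms tell these hairpins apart.

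The values are RPM, the reads of a miRNA scaled by the total reads of its library to one common total. Library totals behind the RPM ran from 11001459 to 12153889 reads, and the 765 listed miRNAs took between 26.4% and 65.6% of them. The listed share was 33.9%, 26.4% and 46.3% in allografts 12, 34 and 56, 36.8%, 54.5% and 48.8% in isografts, and 46.6%, 65.6% and 60.7% in normal corneas. An RPM value therefore also depends on how much other RNA a library holds, and allograft 34 and isograft 12 had the lowest listed shares of their groups. miR-184, the dominant miRNA of corneal epithelium, was at 41540 RPM ± 15232 in allografts, 136818 ± 6200 in isografts and 288696 ± 65850 in normal corneas (SD, n = 3 each), and results are therefore also given under other scalings. miR-21-5p, known to rise in wounds and inflammation, was at 112073 RPM ± 28849 in allografts, 54475 ± 22395 in isografts and 8258 ± 1569 in normal corneas.

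miR-30d-5p was the most abundant member in every library. It stood at 4553, 3450 and 5682 RPM in allografts 12, 34 and 56, at 3787, 5715 and 4808 RPM in isografts and at 4998, 6226 and 6236 RPM in normal corneas. These levels overlapped between all groups and put miR-30d-5p between rank 11 and rank 18 of all listed miRNAs. miR-30a-5p had 3140, 2287 and 4569 RPM in allografts, 2427, 3839 and 3896 RPM in isografts and 3466, 4288 and 3758 RPM in normal corneas. Here too the groups overlapped, and the highest value of all was that of allograft 56.

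miR-30c-5p was the only 5p member whose level was lower in every allograft than in every normal cornea. It had 1666, 1256 and 2448 RPM in allografts 12, 34 and 56, 1657, 4164 and 2794 RPM in isografts and 3533, 4568 and 4626 RPM in normal corneas. The isografts ran from allograft level in isograft 12 to normal level in isograft 34. In rank, miR-30c-5p stood between 26 and 29 in allografts, between 23 and 30 in isografts and at 18 or 19 in normal corneas.

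miR-30e-5p and miR-30b-5p were the minor 5p members. miR-30e-5p had 431, 427 and 1020 RPM in allografts, 184.1, 602 and 549 RPM in isografts and 653, 791 and 695 RPM in normal corneas. miR-30b-5p had 315, 286 and 637 RPM in allografts, 121, 319 and 360 RPM in isografts and 335, 439 and 421 RPM in normal corneas. In both, isograft 12 was the lowest of the 9 libraries and allograft 56 the highest, and within-group SDs of 0.69 (miR-30e-5p) and 0.63 (miR-30b-5p) on the log2 scale exceeded the median of 0.45 over all 281 miRNAs tested.

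The 3p arm was far below its own 5p arm for miR-30a, while for miR-30e the arms were nearer to each other. miR-30a-3p had 156, 121 and 190 RPM in allografts, 210, 255 and 228 RPM in isografts and 201, 290 and 278 RPM in normal corneas. miR-30e-3p had 294, 222 and 335 RPM in allografts, 281, 352 and 329 RPM in isografts and 371, 476 and 473 RPM in normal corneas. All 3 allografts were below all 3 normal corneas for both 3p arms, and for miR-30a-3p they were below all 3 isografts as well. These were the steadiest members, with within-group SDs of 0.26 (miR-30a-3p) and 0.23 (miR-30e-3p) on the log2 scale.

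**Figure D1:**
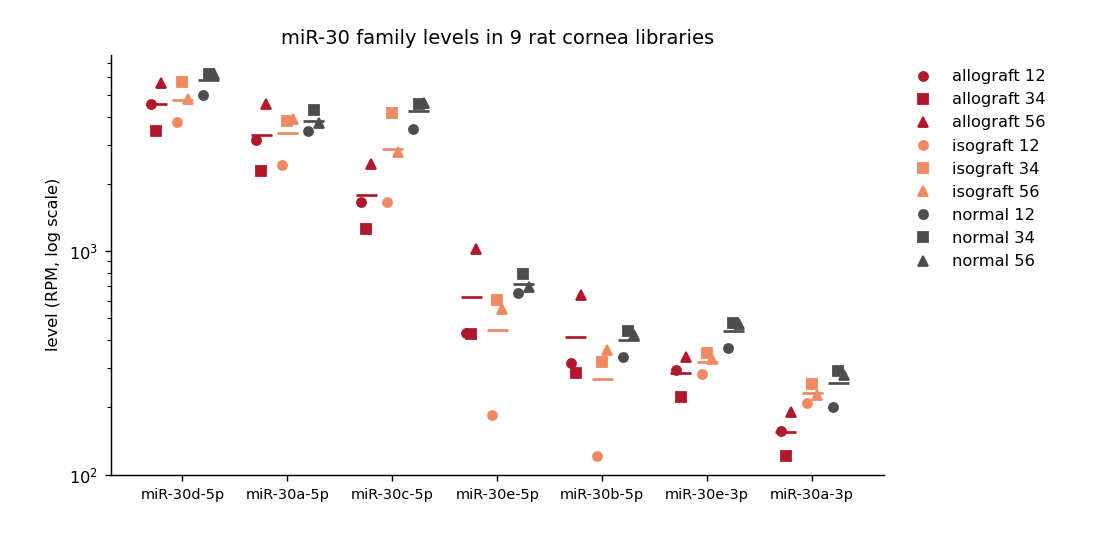
Level of each miR-30 family member in each library, in RPM on a log scale, with allografts, isografts and normal corneas from left to right; symbols give the number in the title and bars the group mean (n = 3). miR-30c-5p is at 1256 to 2448 RPM in the allografts, below the normal corneas at 3533 to 4626 RPM, while the other 5p members overlap between these groups.

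The first comparison sets allografts, where the donor differs by name, against normal corneas. In allografts miR-30c-5p fell by 1.29 on the log2(RPM + 1) scale (SE 0.36, 95% interval -2.03 to -0.55, adjusted p = 0.0041, limma with Benjamini-Hochberg adjustment over the 281 miRNAs tested), a level 2.44-fold lower. It averaged 1790 RPM ± 605 in allografts and 4243 RPM ± 615 in normal corneas (SD, n = 3 each). It was the only member past the threshold of an adjusted p of 0.05, 14.3% of the 7, where 47.3% of all miRNAs tested passed, 24.2% lower and 23.1% higher. This share rests on 1 call, and more members were called lower under several other settings, as given below. It is therefore not read as a result about the family.

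The fall of miR-30c-5p was past the threshold in each of 22 other settings, among them every library left out, with adjusted p from 5.5e-10 to 0.040. Its size moved with the scaling, to -0.57 when libraries were scaled to the sum of the listed miRNAs, where 15.7% of all miRNAs were lower, and to -1.72 without miR-184 in the denominator. Over all miRNAs tested the median log2 fold change shifted with these scalings, and was -0.14 in RPM as deposited, 0.54 when scaled to the listed miRNAs and -0.56 without miR-184. Set against that median, the fold change of miR-30c-5p was -1.15 in RPM as deposited and ran from -1.29 to -1.06 in the other settings.

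The other 4 5p members had log2 fold changes in allografts against normal corneas of -0.37 for miR-30d-5p, -0.31 for miR-30e-5p, -0.26 for miR-30a-5p and -0.04 for miR-30b-5p. None passed (adjusted p from 0.36 to 0.96, limma). Their 95% intervals all lay between -1.17 and 0.80. For each member, changes within its own interval remain compatible with the 3 libraries a group. When scaled to the listed miRNAs, these 4 values turned positive and 3 of them passed the threshold, at 0.46 for miR-30a-5p, 0.68 for miR-30b-5p and 0.35 for miR-30d-5p, while 50.5% of all miRNAs tested were called higher in that scaling. For these members the sign therefore depends on the scaling.

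The 3p arms had fold changes of -0.72 (SE 0.36, adjusted p = 0.096, limma) for miR-30a-3p and -0.64 (SE 0.35, adjusted p = 0.13, limma) for miR-30e-3p in allografts against normal corneas. Neither passed, although the groups did not overlap, which held for 3 of the 7 members and, in the lower direction, for 30.2% of all miRNAs tested. With scaling by the median of ratios both passed, at -0.60 for miR-30a-3p and -0.52 for miR-30e-3p, as they did on recovered reads with edgeR, at -0.59 and -0.50, with DESeq2, at -0.60 and -0.51, and without miR-184 in the denominator, at -1.15 and -1.08. The same fits called 32.7% (median of ratios), 31.3% (edgeR), 32.7% (DESeq2) and 37.4% (without miR-184) of all miRNAs lower. Without isograft 12 in the fit miR-30a-3p passed as well (adjusted p = 0.039, limma, where 31.4% of all miRNAs were lower). When scaled to the listed miRNAs, miR-30a-3p was at -0.01 and miR-30e-3p at 0.07.

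The second comparison sets isografts, where the donor matches by name, against normal corneas. No member passed the threshold in limma, where 21.4% of all miRNAs tested passed, 4.63% lower and 16.7% higher. At an unadjusted p under 0.05 (limma) were 0 of the 7 members and 80 of the 281 miRNAs tested. The 7 log2 fold changes had a median of -0.45, beside 0.05 over all miRNAs tested, and lay between -0.85 for miR-30e-5p (SE 0.42, adjusted p = 0.18) and -0.14 for miR-30a-3p (SE 0.36, adjusted p = 0.87). Between them were miR-30b-5p at -0.72, miR-30c-5p at -0.65, miR-30e-3p at -0.45, miR-30d-5p at -0.30 and miR-30a-5p at -0.21. When scaled to the listed miRNAs miR-30a-5p, miR-30d-5p and miR-30a-3p stood at 0.10, 0.0070 and 0.17.

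These isograft calls changed with the scaling, and the values with isograft 12. On recovered reads edgeR called 5 of the 7 members lower, miR-30b-5p, miR-30c-5p, miR-30d-5p, miR-30e-5p and miR-30e-3p, where it called 16.7% of all miRNAs lower, and DESeq2 called 4, the same without miR-30d-5p, where it called 18.1% lower. Both tools also scale libraries in their own way, and median-of-ratios scaling in limma gave the same 4 as DESeq2 (16.7% of all miRNAs lower), and leaving miR-184 out of the denominator gave 1, miR-30e-5p (8.54% lower). Without isograft 12 the limma fold change of miR-30e-5p was -0.30 instead of -0.85 and that of miR-30c-5p -0.30 instead of -0.65. That of miR-30b-5p was -0.22 instead of -0.72. The median of all miRNAs moved as well, from 0.05 to 0.36. Set against that median, miR-30e-5p stood at -0.66 instead of -0.90 and miR-30c-5p at -0.66 instead of -0.70. On the same footing miR-30b-5p stood at -0.58 instead of -0.77. miR-30e-5p and miR-30e-3p were lower in all 3 isografts than in all 3 normal corneas, 2 of 7 members against 11.0% of all miRNAs tested.

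The third comparison sets allografts against isografts, grafts that differ by name in the match of the donor. No member passed in limma, where 34.5% of all miRNAs tested passed, 21.0% lower and 13.5% higher. At an unadjusted p under 0.05 (limma) were 0 of the 7 members and 125 of the 281 miRNAs tested. miR-30c-5p was at -0.64 (SE 0.36, adjusted p = 0.17) and miR-30a-3p at -0.58 (SE 0.36, adjusted p = 0.21), while miR-30b-5p at 0.68 (SE 0.41, adjusted p = 0.20) and miR-30e-5p at 0.54 (SE 0.42, adjusted p = 0.34) had the opposite sign. Values nearer 0 were those of miR-30e-3p at -0.19, miR-30d-5p at -0.07 and miR-30a-5p at -0.05. The groups did not overlap for 1 member, miR-30a-3p, lower in every allograft, where this held for 22.4% of all miRNAs in the lower direction. This comparison and the 2 above share libraries, so their values are not independent of one another.

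Here too the calls changed with the scaling, and with 1 library left out. edgeR and DESeq2 each called miR-30b-5p and miR-30e-5p higher in allografts than in isografts and miR-30c-5p lower, 2 and 1 of 7 members, where edgeR called 28.1% of all miRNAs higher and 29.9% lower and DESeq2 28.1% and 32.7%. Median-of-ratios scaling in limma called the same 3 members (28.5% of all miRNAs higher, 31.7% lower), and scaling to the listed miRNAs called miR-30a-5p, miR-30b-5p, miR-30d-5p and miR-30e-5p higher (30.6% higher). Without isograft 12 in limma, miR-30c-5p passed at -0.98 (adjusted p = 0.010, limma, where 40.4% of all miRNAs were lower), while miR-30b-5p came to 0.19 and miR-30e-5p to -0.0060. Without allograft 56 these members came to 0.32 for miR-30b-5p and 0.12 for miR-30e-5p, so that either library moved their values by more than 1.5 times. Set against the median of all miRNAs, which also moved, miR-30b-5p stood at 0.97 with all libraries, 0.75 without isograft 12 and 0.89 without allograft 56, and miR-30e-5p at 0.83, 0.56 and 0.70.

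**Figure D2:**
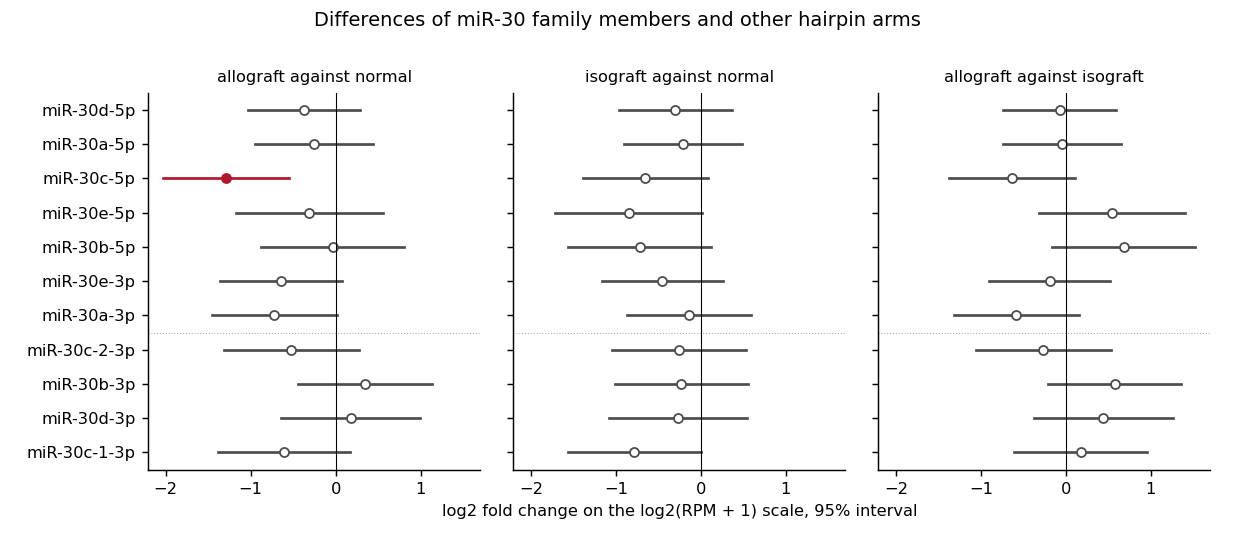
Log2 fold changes on the log2(RPM + 1) scale with 95% intervals from limma, in 3 comparisons, for the 7 members (above the dotted line) and the other arms of the same hairpins (below it); filled red marks an adjusted p under 0.05. Only miR-30c-5p in allografts against normal corneas, at -1.29, is past the threshold.

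Within the family, miR-30c-5p held a smaller share of the 5p reads in every allograft than in any other library. It gave 16.5%, 16.3% and 17.1% of the summed reads of the 5 5p members in allografts 12, 34 and 56, 20.3%, 28.4% and 22.5% in isografts and 27.2%, 28.0% and 29.4% in normal corneas. These shares rest on at least 84802 reads a library, so that the exact binomial 95% interval of allograft 34 was 16.1% to 16.6%, which covers counting error only. As means, miR-30c-5p gave 16.6% ± 0.39 in allografts, 23.7% ± 4.22 in isografts and 28.2% ± 1.11 in normal corneas (SD, n = 3 each). A share within the family does not depend on the RPM denominator.

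The mean shares of all 4 other 5p members were higher in allografts than in normal corneas. Shares add up to the whole of the 5p reads, so a smaller share of miR-30c-5p leaves a larger one to the others together. In RPM as deposited, the log2 fold changes of these 4 lay between -0.37 and -0.04. miR-30a-5p gave 30.9% ± 1.09 of the 5p reads in allografts, 29.1% ± 2.64 in isografts and 25.6% ± 1.52 in normal corneas. miR-30d-5p gave 43.1% ± 3.08 in allografts, 41.4% ± 4.29 in isografts and 38.8% ± 0.767 in normal corneas, with overlap. miR-30e-5p gave 5.64% ± 1.42 in allografts, 3.60% ± 1.18 in isografts and 4.76% ± 0.315 in normal corneas, and miR-30b-5p gave 3.76% ± 0.661, 2.19% ± 0.711 and 2.65% ± 0.0597 in the same order of groups. The isografts had the largest SD for miR-30a-5p, miR-30b-5p, miR-30c-5p and miR-30d-5p, while the allografts had the smallest for miR-30a-5p and miR-30c-5p.

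**Figure D3:**
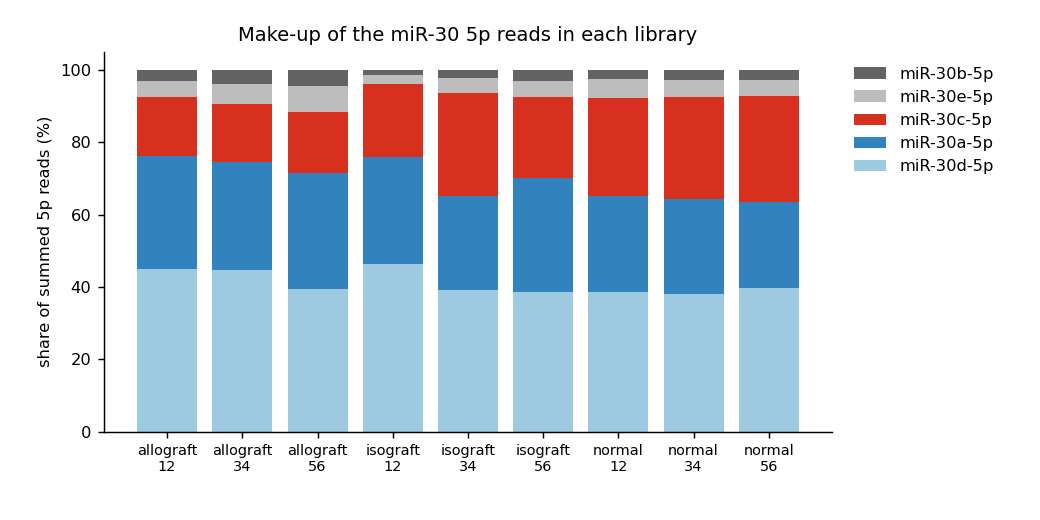
Share of each 5p member in the summed 5p reads of the family, in percent, for each library, with allografts left, isografts in the middle and normal corneas right. The red block, miR-30c-5p, takes 16.3% to 17.1% in the allografts and 27.2% to 29.4% in the normal corneas.

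Ratios between members within a library do not depend on the scaling either. There were 6 ratios, each tested between 2 groups and over all 3 groups by exact two-sided permutation tests. The smallest possible p with 3 libraries in each of 2 groups is 0.1. Some ratios share a member, so they are not independent of one another. How often ratios of other miRNAs separate the groups was not examined. Among the 281 single miRNAs tested, 84 were higher and 85 lower in every allograft than in every normal cornea. Against isografts these counts were 46 and 63. miR-30a-5p stood at 1.88, 1.82 and 1.87 times miR-30c-5p in allografts 12, 34 and 56, at 1.46, 0.922 and 1.39 times in isografts and at 0.981, 0.939 and 0.812 times in normal corneas. Every allograft was above every isograft and every normal cornea. The log2 ratio was higher by 1.03 in allografts than in normal corneas and by 0.59 than in isografts (exact permutation p = 0.1 in both, the smallest possible, and 0.2 after adjustment over the 6 ratios).

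miR-30e-5p, whose hairpin neighbours Mir30c1, stood at 0.259, 0.340 and 0.417 times miR-30c-5p in allografts, at 0.112, 0.145 and 0.197 times in isografts and at 0.185, 0.173 and 0.150 times in normal corneas. Again the allografts lay above all other libraries, with a log2 ratio higher by 0.98 than in normal corneas and by 1.18 than in isografts (exact permutation p = 0.1 in both, 0.2 adjusted). Over the 3 groups, the ratio of miR-30a-5p to miR-30c-5p had an exact permutation p of 0.011 and that of miR-30e-5p to miR-30c-5p one of 0.021, both 0.064 after adjustment over the 6 ratios.

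In the ratio between the arms of the Mir30a hairpin, which shares miR-30a-5p with a ratio above, the allografts did not overlap the other groups either. miR-30a-5p was at 19.98, 18.7 and 23.9 times miR-30a-3p in allografts, at 11.5, 14.98 and 17.1 times in isografts and at 17.1, 14.7 and 13.5 times in normal corneas. The allografts were above all other libraries, with a log2 ratio higher by 0.47 than in normal corneas and by 0.53 than in isografts (exact permutation p = 0.1 in both, 0.2 adjusted, and 0.054 over 3 groups, 0.11 adjusted). For Mir30e the ratio of 5p to 3p arm was 1.47, 1.92 and 3.04 in allografts, 0.657, 1.71 and 1.67 in isografts and 1.76, 1.66 and 1.47 in normal corneas, with overlap (exact permutation p = 0.43 over 3 groups).

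The remaining ratios did not set the allografts apart. miR-30d-5p stood at 14.4, 12.01 and 8.90 times its neighbour miR-30b-5p in allografts, at 31.0, 17.9 and 13.3 times in isografts and at 14.9, 14.1 and 14.8 times in normal corneas (exact permutation p = 0.13 over 3 groups). miR-30a-5p stood at 7.27, 5.35 and 4.48 times miR-30e-5p in allografts, at 13.1, 6.37 and 7.08 times in isografts and at 5.30, 5.42 and 5.40 times in normal corneas (exact permutation p = 0.10 over 3 groups). All 3 isografts were above all 3 normal corneas in this ratio, by 0.64 on the log2 scale (exact permutation p = 0.1, the smallest possible, 0.6 adjusted over the 6 ratios) and by 0.32 without isograft 12. Isograft 12 had the highest value of both ratios.

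**Figure D4:**
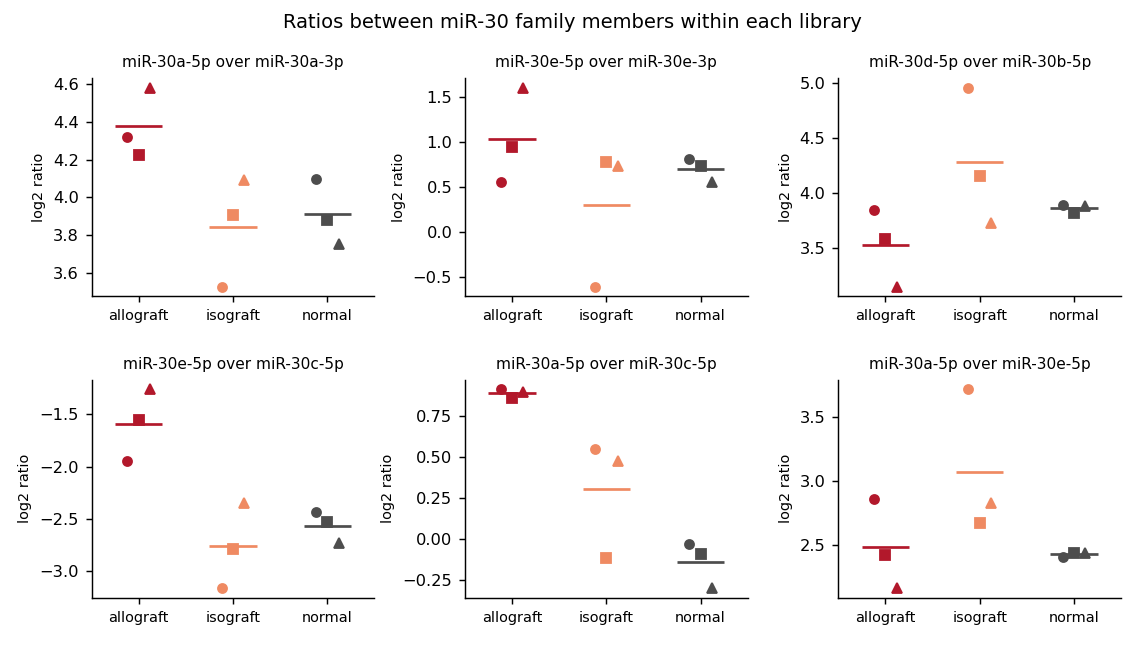
Log2 ratio between 2 members in each library, in 6 panels, with allografts left, isografts in the middle and normal corneas right; symbols are libraries (circle 12, square 34, triangle 56) and bars group means. In the ratios of miR-30e-5p and miR-30a-5p to miR-30c-5p and of miR-30a-5p to miR-30a-3p all 3 allografts are above all other libraries.

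The table also lists 4 other arms of these hairpins, all much lower than their 5p partners. miR-30c-2-3p, the 3p arm of Mir30c2, had 43.2, 26.4 and 55.2 RPM in allografts, 42.6, 52.3 and 49.7 RPM in isografts and 51.2, 60.8 and 61.2 RPM in normal corneas. miR-30c-1-3p had 8.63, 4.54 and 8.90 RPM in allografts, 3.54, 7.45 and 8.63 RPM in isografts and 9.81, 11.99 and 12.4 RPM in normal corneas. Of the miR-30c 3p reads, between 83.2% and 92.3% came from the Mir30c2 hairpin in every library. miR-30c-1-3p was lower in all 6 grafts than in all 3 normal corneas, while miR-30c-2-3p overlapped between groups. Against normal corneas, such a lack of overlap in the lower direction held for 11.0% of all miRNAs tested in isografts and 30.2% in allografts.

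miR-30c-5p fell in allografts while the log2 fold changes of its 3p arms were smaller and did not pass, at -0.52 (SE 0.39, adjusted p = 0.28, limma) for miR-30c-2-3p and -0.61 (SE 0.38, adjusted p = 0.20, limma) for miR-30c-1-3p. miR-30c-5p was at 32.2, 40.7 and 38.2 times the sum of both 3p arms in allografts, at 35.9, 69.7 and 47.9 times in isografts and at 57.9, 62.8 and 62.9 times in normal corneas, a description without a test. The allografts lay below all normal corneas, and isograft 34 was the highest of all. The ratio of 5p to 3p was thus lower in allografts than in normal corneas for miR-30c, and higher for miR-30a.

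The 3p arms of Mir30b and Mir30d had log2 fold changes above 0 in allografts, at 0.34 (SE 0.38, adjusted p = 0.48, limma) for miR-30b-3p and 0.17 (SE 0.40, adjusted p = 0.74, limma) for miR-30d-3p against normal corneas. miR-30b-3p averaged 17.7 RPM ± 4.04 in allografts, 11.9 RPM ± 4.31 in isografts and 13.6 RPM ± 1.39 in normal corneas, and miR-30d-3p 13.1 RPM ± 3.88, 10.02 RPM ± 4.69 and 11.3 RPM ± 1.30 in the same order. Of these 4 arms, 0 passed in any of the 3 comparisons in limma. Only 1, miR-30c-1-3p in isografts against normal corneas, was at an unadjusted p under 0.05 (limma), where 80 of the 281 miRNAs tested were.

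Summed over the 5 5p members, the family held 10723 RPM ± 3368 in allografts, 11741 RPM ± 3283 in isografts and 15012 RPM ± 1778 in normal corneas. By library the sum was 10106, 7706 and 14356 RPM in allografts, 8176, 14639 and 12407 RPM in isografts and 12986, 16312 and 15737 RPM in normal corneas, so the groups overlapped. How the family stood among miRNAs depended on which abundant miRNAs were counted with it. The 5 members took 2.997% ± 0.0940 of the listed miRNA reads in allografts, 2.48% ± 0.238 in isografts and 2.62% ± 0.151 in normal corneas, and the allografts were above all others. With miR-184 left out of the listed reads, they took 3.39% ± 0.154 in allografts, 3.54% ± 0.0895 in isografts and 5.22% ± 0.0956 in normal corneas, and all 6 grafts were below the normal corneas.

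Marker sums of several cell types also differed between the groups. The 8 epithelial marker miRNAs (miR-184, miR-205, miR-203a-3p and 5 of the miR-200 family), all detected in every library, summed to between 37254 and 90969 RPM in allografts, between 159213 and 193990 RPM in isografts and between 271148 and 420587 RPM in normal corneas. The 5 leukocyte markers (both arms of miR-142, miR-223-3p, miR-150-5p and miR-155-5p) summed to between 2293 and 3997 RPM in allografts, between 156 and 327 RPM in isografts and between 46.0 and 56.7 RPM in normal corneas, and the 7 markers of stroma, fibroblasts and smooth muscle to between 11397 and 21573, between 17134 and 36103 and between 8192 and 10206 RPM in the same order of groups. The 2 endothelial markers summed to between 2955 and 4874 RPM in allografts, between 2095 and 6150 RPM in isografts and between 346 and 857 RPM in normal corneas.

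Marker sums of red blood cells and neurons overlapped between all groups, those of muscle were low throughout, and miR-144-3p of the red blood cell list was at 0 in 1 library. Red blood cell markers summed to between 17.5 and 1067 RPM in allografts, between 13.6 and 181 RPM in isografts and between 82.3 and 343 RPM in normal corneas. Muscle markers summed to between 1.91 and 12.2 RPM in allografts, between 4.09 and 4.73 RPM in isografts and between 8.36 and 11.5 RPM in normal corneas, and neuron markers to between 26.1 and 47.3, between 33.5 and 56.6 and between 37.2 and 45.2 RPM. The part of these cell types in the miR-30 values was not tested, and in whole corneas fewer cells of a type and less RNA per cell cannot be told apart.

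In allografts against normal corneas the 7 members had a median log2 fold change of -0.37, against -1.97 for the 8 epithelial markers, of which 7 fell, and 5.60 for the 5 leukocyte markers, all of which rose. The median over all miRNAs tested was -0.14. Of 12 members of other broadly expressed families (let-7, miR-26, miR-148 and miR-152), 2 fell and 0 rose, with a median of -0.53, and of 6 miRNAs named as lowered in fibrosis of other tissues (miR-29a, miR-29b, miR-29c, miR-26a, miR-101a and miR-133a, some of them also on the lists above) 1 rose and 1 fell, with a median of -0.33. In isografts against normal corneas the medians were -0.45 for the 7 members, -0.94 for the epithelial markers, 2.52 for the leukocyte markers, 0.23 for the broadly expressed families and -0.37 for the fibrosis list. In allografts against isografts they were -0.07 for the members, -0.91 for the epithelial markers, 3.78 for the leukocyte markers, -0.47 for the broadly expressed families and 0.21 for the fibrosis list.

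The miRNAs whose log2(RPM + 1) values over the 9 libraries were most like those of miR-30c-5p differed from those most like miR-30a-5p. For miR-30c-5p, the 5 highest Pearson correlations outside the family were those of miR-1843a-5p, miR-96-5p, miR-99a-5p, miR-31a-5p and miR-200c-3p, between 0.966 and 0.971, and the last of these is on the epithelial list. For miR-30a-5p they were those of miR-674-5p, miR-361-5p, miR-181a-5p, miR-378a-5p and miR-324-3p, between 0.929 and 0.962. The first 5 had log2 fold changes between -1.85 and -0.92 in allografts against normal corneas, and the other 5 between -0.53 and -0.11. Since each set was picked by its likeness over these same libraries, fold changes near that of miR-30c-5p or miR-30a-5p follow largely from the choice. Between miR-30c-5p and the other 5p members the correlation was 0.905 for miR-30d-5p, 0.766 for miR-30a-5p, 0.622 for miR-30e-5p and 0.475 for miR-30b-5p. These correlations describe 9 libraries in 3 groups that share the grouping and the RPM denominators, and carry no test.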

How the data were processed

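The deposited table gives RPM values, set by the authors, for 765 mature miRNAs in 9 libraries, and 0 value columns were left unmatched. Trizol RNA, 1 ug in total, entered the Illumina TruSeq small RNA kit, per the labels' protocols. The submitters' processing notes name BWA, bcl2fastq and build rn6. How miRNAs were annotated, and how a read matching more than one was counted, is not given in the sources used here. Each library's RPM values moved in steps of 1 read, and 100% of them came out whole within 0.1 read.

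A miRNA was tested if 3 or more libraries reached 5 RPM, which kept 281 and all 7 members. limma 3.58.1 (R 4.3.3) with a mean-variance trend was run on log2(RPM + 1) of all 9 libraries, with Benjamini-Hochberg adjustment over the 281 and a threshold of 0.05. This scale understates changes of low miRNAs. The fit was tested on simulated counts. These had the same dispersion for every miRNA and no shift of the listed share, so the test does not cover these features of the data. Alternatives used edgeR 4.0.16 and DESeq2 1.42.0 on the recovered reads, other scalings, filters and pseudocounts, and each library left out. No 2 libraries of a group matched within counting noise (chi-square over its degrees of freedom at least 70.5).

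The miRNAs named are the members, the other arms of their hairpins, miR-384-5p, miR-184, miR-21-5p, the 5 most like each of miR-30a-5p and miR-30c-5p, and marker and comparison lists. Members and lists were chosen with earlier results of these data known. Whether the title numbers pair libraries across groups is not stated, and the reported fit did not use them.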

Additional observations from a re-analysis of the deposited data

How the results depend on the processing

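The fall of miR-30c-5p in allografts against normal corneas was past the threshold in all 22 alternatives. All 162 values of the log2 ratios stayed within 1 SD of the reported ones. For most of these this was fixed in advance, since leaving out a library cannot move a ratio difference further than that. The replicate block cannot move it at all, so only the other pseudocounts could have done so. Some settings changed only the filter, the variance model, the block or the libraries outside the comparison. There the members' log2 fold changes could alter in call but not in direction. Over all alternatives most kept both: 393 did, 35 passed the threshold in the same direction where the reported one did not, and 34 changed sign. Of the last, those of miR-30a-5p and miR-30d-5p in allografts against either other group and of miR-30b-5p in allografts against normal corneas also passed when scaled to the listed miRNAs. The causes were not tested.

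Over all miRNAs, the number called in isografts against normal corneas was 60, with 30 under a filter of 50 RPM, 114 with median-of-ratios scaling, 122 scaled to the listed miRNAs, 114 with edgeR, 119 with DESeq2 and 40 to 79 with each library left out. In allografts against normal corneas it was 133, with 63 under the filter of 50 RPM, which tests fewer miRNAs, and 96 to 162 with each library left out. In allografts against isografts it was 97, with 44 under that filter, 169 with median-of-ratios scaling, 163 with edgeR, 171 with DESeq2 and 42 to 146 with each library left out, 42 without allograft 34, 52 without allograft 12 and 146 without isograft 12.

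Members called lower in isografts against normal corneas numbered 4 with median-of-ratios scaling, where 16.7% of all miRNAs were lower, and 1 without miR-184 (8.54%). They numbered 5 with edgeR (16.7%) and 4 with DESeq2 (18.1%). In allografts against normal corneas 3 were lower with median-of-ratios scaling (32.7% of all miRNAs lower), without miR-184 (37.4%), with edgeR (31.3%) and with DESeq2 (32.7%). With each library left out 1 to 2 were lower, the 2 without isograft 12 (31.4%). Scaled to the listed miRNAs 3 were higher, where 50.5% of all miRNAs were higher. In allografts against isografts 2 were higher and 1 lower with median-of-ratios scaling (28.5% and 31.7% of all miRNAs), edgeR (28.1% and 29.9%) and DESeq2 (28.1% and 32.7%). Scaled to the listed miRNAs 4 were higher (30.6%). With each library left out 0 to 1 were lower, the 1 without isograft 12 (40.4%).

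Signs changed only in values that the reported fit did not call. In isografts against normal corneas, scaling to the listed miRNAs gave 0.10 for miR-30a-5p, 0.0070 for miR-30d-5p and 0.17 for miR-30a-3p, and leaving out each library gave -0.32 to 0.017 for miR-30a-5p. In allografts against normal corneas miR-30b-5p was at 0.086 with median-of-ratios scaling, 0.11 with edgeR, 0.10 with DESeq2, 0.68 scaled to the listed miRNAs and -0.40 to 0.18 with each library left out. Scaled to the listed miRNAs miR-30a-5p was at 0.46, miR-30d-5p at 0.35, miR-30e-5p at 0.41 and miR-30e-3p at 0.074. In allografts against isografts miR-30a-5p, miR-30d-5p and miR-30e-3p were at 0.16, 0.14 and 0.021 with median-of-ratios scaling, at 0.36, 0.34 and 0.22 scaled to the listed miRNAs, at 0.18, 0.15 and 0.027 with edgeR and at 0.16, 0.13 and 0.0024 with DESeq2. With each library left out these ran from -0.31 to 0.19 for miR-30a-5p, from -0.25 to 0.11 for miR-30d-5p and from -0.0060 to 0.85 for miR-30e-5p, -0.0060 being the value without isograft 12.

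Deviations from the group mean had correlations from -0.51 to 0.56 between libraries with the same number, with 2 of 9 above 0.1. In 4 of 18 checks the correlation was highest with the own number among the 3 libraries of another group. With 3 libraries a group, such values cannot show whether the numbers pair libraries. With the replicate block, 66 miRNAs instead of 60 were called in isografts and 143 instead of 133 in allografts, each against normal corneas. Between the graft groups 112 instead of 97 were called, and the members called were unchanged. Depth limits low miRNAs such as miR-384-5p, since 3 reads come to between 0.247 and 0.273 RPM, and binomial intervals and this floor cover counting error only.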
